A study of Mus musculus with 12 samples.

Results

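A set of 38 genes for the photoreceptor outer segment, the connecting cilium and inherited retinal degeneration was followed in whole retina RNA-seq of JR5558 and C57BL/6J mice. The members are defined by symbol and known role, and the list was drawn up with earlier results of these data known. Of the 38 symbols, 37 had a row among the 56748 genes of the count table, each on 1 identifier, and Eys had none. All 37 passed the filter on low counts that left 18334 genes for testing.

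Whole retinas were taken from 4 groups of 3 mice, and each library was made from a retina of a different mouse. The groups were JR5558 at 4 weeks, JR5558 at 8 weeks, and wild-type C57BL/6J controls at the same 2 ages. JR5558 is a mouse line that forms subretinal neovascular lesions without an applied injury and is known to carry the rd8 allele of Crb1, and no treatment is named for any group. The comparison is between strains, so the effect of a single allele, of the lesions and of other differences between the lines cannot be told apart.

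The outer segment is a modified cilium packed with membrane discs that hold the phototransduction proteins. All its components are made in the inner segment and pass through the connecting cilium, where transition zone proteins, motor complexes and lipid-binding carriers select and move the cargo. Old disc tips are shed and taken up by the retinal pigment epithelium, and loss of most of these genes causes retinitis pigmentosa, Leber congenital amaurosis or a syndromic ciliopathy in people or mice.

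The libraries held 18029611 to 23739886 counts, of which the 37 genes took 2.03% to 2.30%. Markers of rods, fixed as a list of 13, summed to between 62289 and 75934 CPM (counts per 1e+06 counts of a library, on library sizes scaled by the trimmed mean of M-values) in the 12 libraries, with no marker at 0, so every library held the defining markers of the labelled tissue. The 3 JR5558 libraries at 4 weeks had 0 to 5 counts of Xist and 1323 to 1846 of the Y-linked Ddx3y, while the other 9 had 7772 to 22988 of Xist and 0 of Ddx3y. Sex therefore cannot be told apart from strain at 4 weeks, from age within JR5558, or from a difference of the strain effect between the ages. It did not differ between the strains at 8 weeks. The C57BL/6J library of replicate 3 at 4 weeks stood apart most often, with the highest value of all 12 libraries in 9 of the 37 genes and the lowest in 7. Its 8 lens markers summed to 130 CPM, beside 7.70 and 10.7 in the rest of its group. JR5558 replicate 3 at 4 weeks scored 29.0 on the second principal component, beside -16.3 to 4.76 for the other 11 libraries.

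Levels between genes were compared on the authors' FPKM, which divides by gene length. The tetraspanins Prph2 and Rom1, which shape the rims of the discs, led with a mean of 1838 (range 1509 to 2108) and 1502 (1180 to 1763) FPKM over the 12 libraries. Their ranges overlapped. Unc119, a carrier of lipid-modified proteins such as transducin, followed at 753 FPKM (663 to 831), below the range of both. Aipl1, the chaperone of rod phosphodiesterase, had 288 FPKM (232 to 334), and Cdhr1, a cadherin at newly forming discs, had 273 (249 to 303), so those neighbours overlapped. At the low end stood the phagocytosis receptor Mertk at 2.50 FPKM (1.46 to 3.68), Spata7, a protein of the connecting cilium, at 1.91 (1.70 to 2.42), the kinesin Kif17 at 1.36 (0.860 to 2.19) and the Usher cadherin Cdh23 at 0.112 (0.0273 to 0.193). The other 28 genes had mean FPKM values between these.

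**Figure D1:**
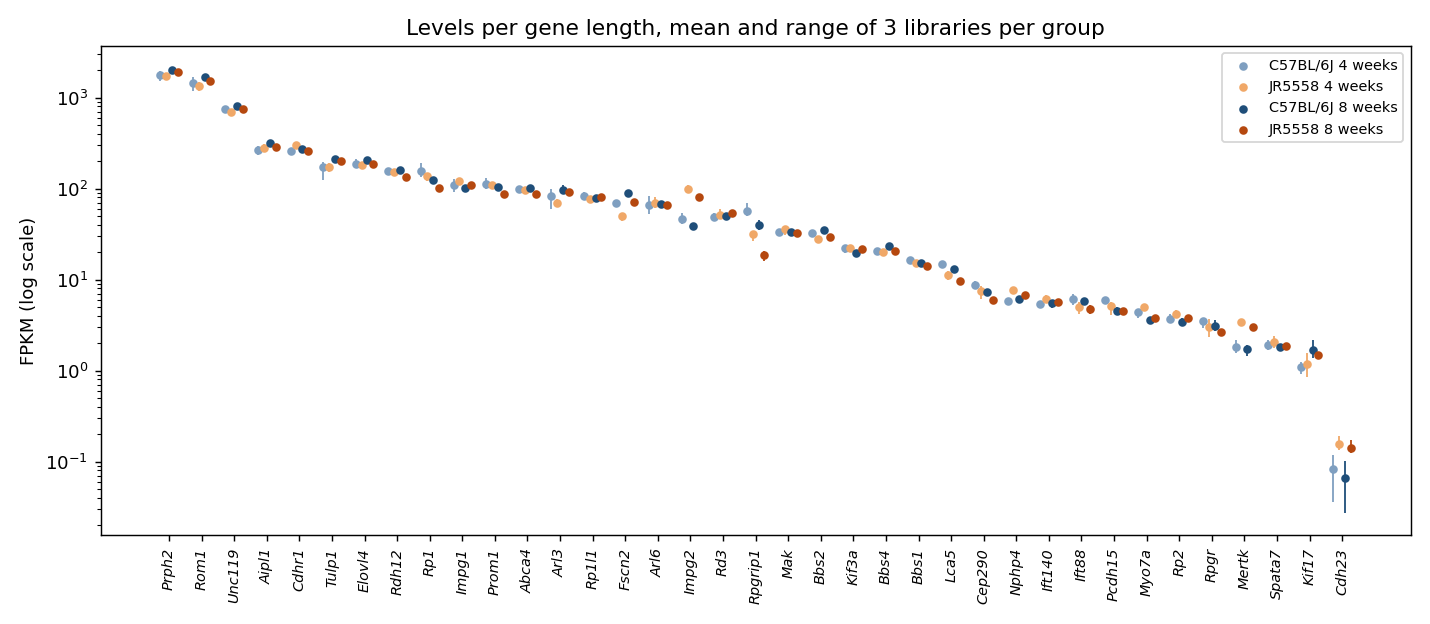
Mean FPKM of each of the 37 genes in each group on a log scale, with genes ordered by their mean over all libraries; points are group means and vertical lines the range of the 3 libraries. Prph2 and Rom1 lie highest and Cdh23 lowest, and the groups of Impg2, Rpgrip1 and Mertk are split by strain.

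The strain comparison asked which of the genes differed between JR5558 and C57BL/6J retina at each age. In JR5558 the interphotoreceptor matrix proteoglycan Impg2 and the receptor Mertk were higher at both ages, and the cilium proteins Rpgrip1 and Lca5 and the actin-bundling protein Fscn2 were lower at both ages. Nphp4 was higher at 4 weeks, and Rdh12 was lower at 8 weeks. The other 30 genes did not pass the test at either age. At 4 weeks 3 genes were higher and 3 lower, 16.2% of the 37, beside 6.16% of all genes tested (3.27% higher and 2.9% lower). At 8 weeks 2 were higher and 4 lower, again 16.2%, beside 5.18% of all genes tested (2.54% higher and 2.63% lower). The median log2 fold change of JR5558 over C57BL/6J was -0.02 at 4 weeks and -0.09 at 8 weeks, while that of all genes tested was 0.00 at both. Adjusted p-values here and below come from edgeR's quasi-likelihood test with Benjamini-Hochberg adjustment over the 18334 genes, with a threshold of 0.05, and each fold change is given with its standard error (SE). In whole retina, fewer cells of a type and less RNA per cell cannot be told apart.

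The split at 8 weeks moved with the scaling. When libraries were scaled on the 13 rod markers instead of on all genes, 7 of the 37 genes were higher and 1 lower at 8 weeks, and the median of all genes moved to 0.18 on the log2 scale. Of all genes, 12.2% were called under that scaling, 1999 higher and 230 lower. Under it Impg2 and Mertk remained higher and Rpgrip1 lower, and Fscn2, Lca5 and Rdh12 no longer passed (adjusted p = 0.251, 0.0927 and 0.445). Cdh23, Impg1, Kif3a, Nphp4 and Rd3 were then called higher (adjusted p = 0.0495, 0.0418, 0.0441, 0.0341 and 0.0398). With only the 8-week groups fitted, 11 of the 37 genes were called beside 12.5% of all genes, with Abca4, Bbs2, Cep290, Prom1 and Rp1 added as lower (adjusted p = 0.00726, 0.0202, 0.00991, 0.0107 and 0.000262), and DESeq2 added Abca4 and Bbs2 (adjusted p = 0.0298 and 0.0464). The summed rod markers were 72712 to 75934 CPM in C57BL/6J and 64797 to 67108 in JR5558 at 8 weeks, where 3 of the 13 were lower (Gnat1, Cngb1 and Pde6b) and none higher. At 4 weeks they were 63428 to 68311 and 62289 to 69749 CPM, and none of the 13 passed in edgeR's test.

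**Figure D2:**
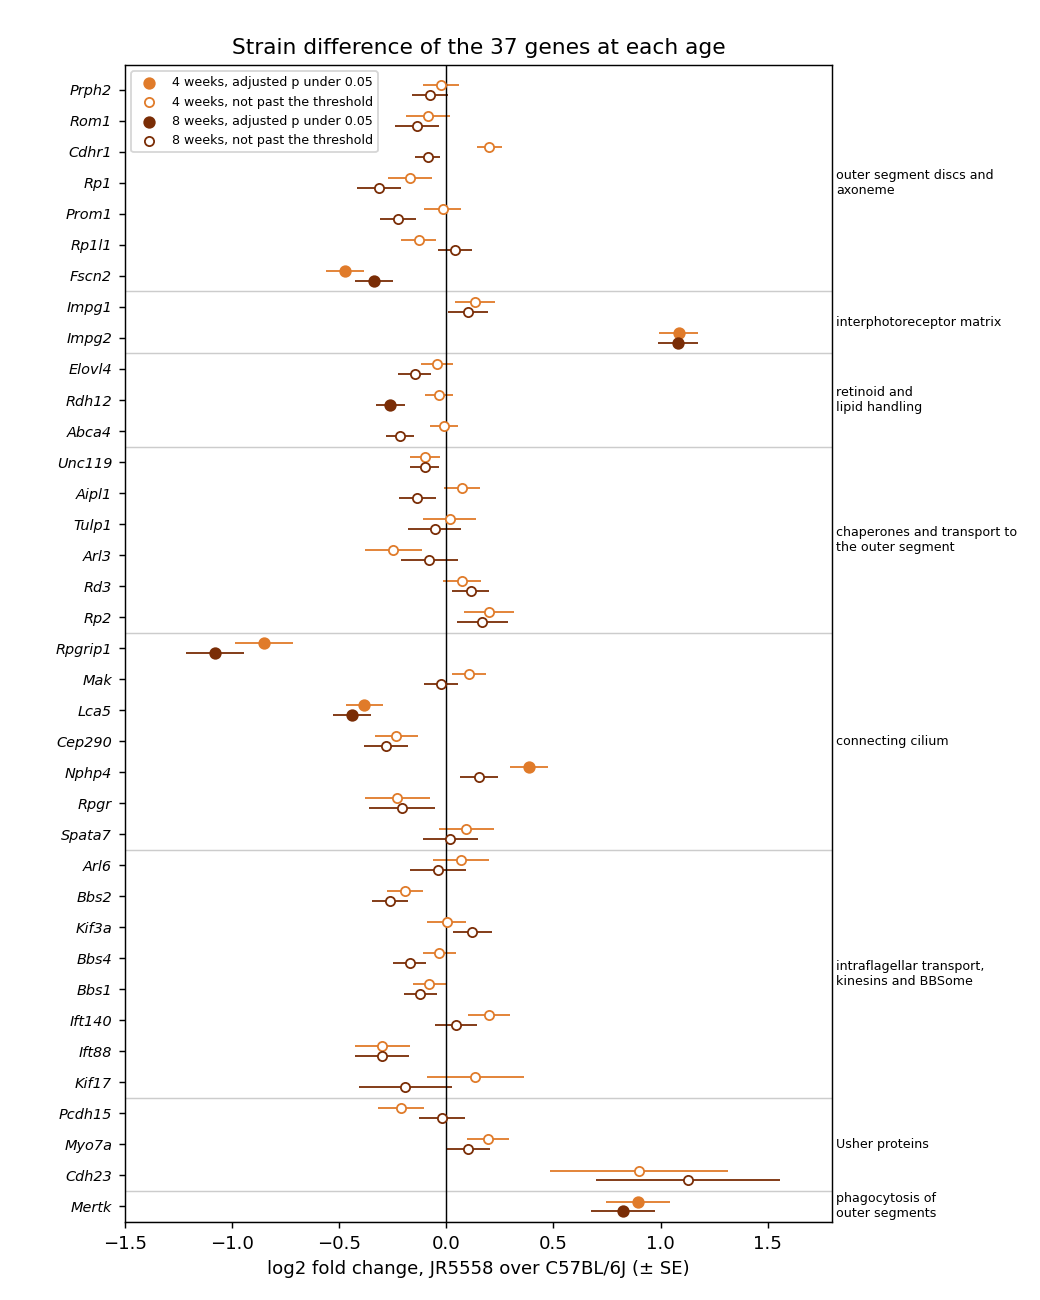
Log2 fold change of JR5558 over C57BL/6J (horizontal axis) for the 37 genes in groups by role, at 4 weeks (light) and 8 weeks (dark); lines are the SE and filled points passed the adjusted threshold. Impg2, Mertk and Cdh23 lie near 1 at both ages and Rpgrip1 near -1. The points of Cdh23 are open, as it did not pass, and most other genes lie close to 0.

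Impg2 codes for a membrane-anchored proteoglycan of the interphotoreceptor matrix, the gel that surrounds the outer segments, and it lies at chr16:56204313-56273756 on the plus strand (GRCm38; ENSMUSG00000035270). At 4 weeks it had 428, 380.1 and 495 CPM in the C57BL/6J libraries and 1035, 851 and 879 in the JR5558 libraries. At 8 weeks the values were 341, 355 and 385 CPM in C57BL/6J and 779.6, 769 and 739.8 in JR5558. Every JR5558 library was above every C57BL/6J library of either age. The log2 fold change was 1.08 ± 0.09 (SE) at both ages (adjusted p = 1.87e-07 at 4 weeks and 2.08e-07 at 8 weeks), a 2.12-fold difference. Its paralog Impg1, the other gene of this matrix among the 37, had 335 to 465 CPM in C57BL/6J and 387 to 448 in JR5558 over both ages, with log2 fold changes of 0.14 ± 0.09 and 0.10 ± 0.09 that did not pass. Per gene length, Impg2 was below Impg1 in C57BL/6J at both ages on the plot of FPKM levels. The 250 bases before the RefSeq start of Impg2 (GRCm38.p6, chr16:56204063-56204312, plus strand) are shown because this gene had the most significant strain difference of the 37, and none of the 3 motifs searched, described with Rpgrip1, is in this window.
Impg2: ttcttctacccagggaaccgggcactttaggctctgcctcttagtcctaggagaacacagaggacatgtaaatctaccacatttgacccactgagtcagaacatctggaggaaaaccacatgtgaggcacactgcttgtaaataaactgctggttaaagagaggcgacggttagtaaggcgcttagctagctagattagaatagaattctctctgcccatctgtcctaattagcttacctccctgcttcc

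Rpgrip1 codes for the protein that anchors Rpgr at the connecting cilium, and it lies at chr14:52110704-52163546 on the plus strand (GRCm38; ENSMUSG00000057132). At 4 weeks the C57BL/6J libraries had 629, 860.3 and 606 CPM and the JR5558 libraries 415, 421 and 325. At 8 weeks C57BL/6J had 560.3, 426 and 462 CPM and JR5558 had 250.05, 242 and 193. The strains did not overlap at either age, and all 3 JR5558 libraries at 8 weeks were below all other 9. This gave a log2 fold change of -0.85 ± 0.14 (adjusted p = 0.000445) at 4 weeks and -1.08 ± 0.14 (adjusted p = 3.81e-05) at 8 weeks. In the GENCODE annotation of GRCm38, Rpgrip1 shares 1057 exonic bases with Supt16 on the opposite strand, whose mean level was 25.2% of that of Rpgrip1. Supt16 itself had -0.31 ± 0.08 (adjusted p = 0.0175) at 4 weeks and -0.19 ± 0.08 (adjusted p = 0.200) at 8 weeks. The strand setting of the counting was not given in the sources used here, so reads of the shared bases cannot be assigned to one of these genes.

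The promoter windows of the genes were searched on both strands for 3 short motifs. TAATCC, the core bound by the photoreceptor factors CRX and OTX2, was in 6 of 35 genes matched by symbol (17.1%), beside 7.21% of the 27025 symbols with RefSeq windows of the same length, counting a gene with several starts once if any of its windows held the motif. The 6 were Abca4, Aipl1, Unc119, Rpgrip1, Mak and Bbs1. TGCTGA, the core motif of the rod factor NRL, was in 8 of 35 (22.9%) beside 18.02%, and the GC box GGGCGG in 16 of 35 (45.7%) beside 35.4%. None of these motifs contains another. Of the genes that were higher or lower at both ages, Rpgrip1 was the one that held a CRX core. Its matches are shown with the motif in capitals, here on the opposite strand, 28 and 113 bases before the RefSeq start (GRCm38.p6, chr14:52110863-52110892 and chr14:52110778-52110807). The GENCODE model of Rpgrip1 starts further upstream, so that 199 of the 250 bases of this window are exonic there and both matches lie inside the gene span given above. In the windows of Impg2, Mertk and Fscn2, 0 bases are exonic.
Rpgrip1 TAATCC match: gctaaaaggcctGGATTAgtgtctcctcta
Rpgrip1 TGCTGA match: gtttctccaagtTCAGCAcgcgatgaggga

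Mertk codes for the receptor tyrosine kinase through which the pigment epithelium binds and engulfs shed outer segments, and it lies at chr2:128698956-128802894 on the plus strand (GRCm38; ENSMUSG00000014361). At 4 weeks it had 6.74, 7.97 and 9.31 CPM in C57BL/6J and 14.98, 13.6 and 16.1 in JR5558. At 8 weeks it had 8.31, 7.69 and 6.36 CPM in C57BL/6J and 14.4, 12.6 and 12.7 in JR5558. Every JR5558 library was above every C57BL/6J library. The fitted log2 fold change was 0.89 ± 0.15 (adjusted p = 0.000738) at 4 weeks and 0.83 ± 0.15 (adjusted p = 0.00192) at 8 weeks, and these levels rest on 119 to 363 counts per library.

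Pigment epithelium markers also differed between the strains. Of 12 such markers, 11 were higher in JR5558 at 4 weeks and 3 at 8 weeks, none was lower and none was at 0 in any library. Their summed level was 130 to 299 CPM in C57BL/6J and 398 to 586 in JR5558 at 4 weeks, and 218 to 342 and 458 to 652 at 8 weeks. Rpe65, the visual cycle isomerase that defines this epithelium, had 3.13 to 23.99 CPM in C57BL/6J and 28.02 to 51.0 in JR5558 at 4 weeks, and 12.5 to 22.2 and 34.6 to 54.6 at 8 weeks. The 8 microglia markers summed to 53.1 to 63.8 CPM in C57BL/6J and 70.9 to 83.5 in JR5558 at 4 weeks, and 55.3 to 59.6 and 80.6 to 93.3 at 8 weeks, with 3 of 8 higher at each age. Müller glia markers, 8 in all, summed to 4409 to 5562 and 5383 to 6202 CPM at 4 weeks and to 5332 to 5731 and 6498 to 6943 at 8 weeks, with 5 and 2 of them higher. The 8 endothelial markers summed to 246 to 279 and 367 to 381 CPM at 4 weeks and to 261 to 264 and 322 to 336 at 8 weeks. Of these, Kdr was higher at both ages and Cldn5 lower at 8 weeks, and the median log2 fold change of the 8 was 0.03 and -0.32. The part of these cell types in the Mertk difference was not tested.

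The Mertk window is shown because its GC boxes, in capitals on the opposite strand 198, 152 and 99 bases before the start, set it beside Fscn2, which also holds this motif and moved the other way (GRCm38.p6, chr2:128698665-128698914, plus strand). The motif was in 16 of 35 genes and in 35.4% of all symbols, and its part in either difference was not tested.
Mertk: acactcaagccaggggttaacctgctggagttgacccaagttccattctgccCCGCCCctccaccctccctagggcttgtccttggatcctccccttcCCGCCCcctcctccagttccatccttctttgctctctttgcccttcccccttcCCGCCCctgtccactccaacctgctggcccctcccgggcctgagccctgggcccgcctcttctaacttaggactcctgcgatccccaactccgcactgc

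Fscn2 codes for the retinal fascin, which bundles actin filaments in photoreceptors, and it lies at chr11:120361534-120368168 on the plus strand (GRCm38; ENSMUSG00000025380). At 4 weeks it had 159, 151 and 132 CPM in C57BL/6J and 93.9, 114 and 111 in JR5558. At 8 weeks it had 185, 191 and 195 CPM in C57BL/6J and 145, 144 and 163 in JR5558. The strains did not overlap within either age, but the 8-week JR5558 libraries reached the range of the 4-week C57BL/6J libraries. The strain effect was -0.47 ± 0.09 (adjusted p = 0.00221) at 4 weeks and -0.34 ± 0.09 (adjusted p = 0.0310) at 8 weeks. The call at 8 weeks was lost in 5 of the 6 fits that left out 1 of the 8-week libraries, all except the one without JR5558 replicate 3, with adjusted p of up to 0.166, and with a replicate block (adjusted p = 0.0515). Its window (GRCm38.p6, chr11:120361284-120361533, plus strand) has GC boxes in capitals on the opposite strand, 65 and 52 bases before the start.
Fscn2: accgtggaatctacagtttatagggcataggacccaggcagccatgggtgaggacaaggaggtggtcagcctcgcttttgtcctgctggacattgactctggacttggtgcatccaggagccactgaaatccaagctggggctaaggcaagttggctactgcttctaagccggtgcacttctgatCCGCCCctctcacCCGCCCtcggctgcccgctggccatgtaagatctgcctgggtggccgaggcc

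Lca5 codes for lebercilin, a protein of the connecting cilium that binds the intraflagellar transport machinery, and it lies at chr9:83390293-83441127 on the minus strand (GRCm38; ENSMUSG00000032258). At 4 weeks it had 88.8, 94.1 and 97.0 CPM in C57BL/6J and 73.1, 78.1 and 63.7 in JR5558. At 8 weeks it had 90.5, 78.6 and 80.7 CPM in C57BL/6J and 64.6, 59.2 and 60.2 in JR5558. The strains did not overlap within either age. On the log2 scale JR5558 differed by -0.38 ± 0.09 (adjusted p = 0.0114) at 4 weeks and -0.44 ± 0.09 (adjusted p = 0.00421) at 8 weeks. The call at 4 weeks was lost without JR5558 replicate 3 (adjusted p = 0.0582) and when only the 4-week groups were fitted (adjusted p = 0.0722).

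Nphp4 codes for nephrocystin 4, a transition zone protein, and it lies at chr4:152476706-152563183 on the plus strand (GRCm38; ENSMUSG00000039577). At 4 weeks it had 35.1, 36.8 and 34.5 CPM in C57BL/6J and 43.1, 50.3 and 45.5 in JR5558. At 8 weeks it had 40.5, 35.7 and 35.7 CPM in C57BL/6J and 41.4, 41.5 and 41.7 in JR5558. JR5558 was above C57BL/6J in all libraries at 4 weeks and by a narrow margin at 8 weeks. The fitted strain effect on the log2 scale was 0.38 ± 0.09 (adjusted p = 0.0117) at 4 weeks and 0.15 ± 0.09 (adjusted p = 0.405) at 8 weeks, and the difference between the ages, -0.23 ± 0.13, did not pass (adjusted p = 0.747). The call at 4 weeks was lost without JR5558 replicate 2 (adjusted p = 0.0675) and when only the 4-week groups were fitted (adjusted p = 0.0878). Kcnab2 lies opposite within this locus with 0 shared exonic bases and a mean level 871% of that of Nphp4, and it was lower in JR5558 (-0.36 ± 0.07, adjusted p = 0.00530 at 4 weeks).

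Rdh12 codes for a retinol dehydrogenase of the photoreceptor inner segment that reduces all-trans-retinal, and it lies at chr12:79208914-79222665 on the plus strand (GRCm38; ENSMUSG00000021123). At 4 weeks it had 466, 453 and 474 CPM in C57BL/6J and 415, 476 and 470.2 in JR5558, so the strains overlapped. At 8 weeks it had 471, 483 and 486 CPM in C57BL/6J and 407, 389 and 407 in JR5558, with no overlap. The log2 fold change was -0.03 ± 0.07 (adjusted p = 0.841) at 4 weeks and -0.26 ± 0.07 (adjusted p = 0.0250) at 8 weeks, and the difference between the ages was -0.23 ± 0.09 (adjusted p = 0.618). The call at 8 weeks was lost in each of the 6 fits without 1 of the 8-week libraries, with adjusted p of up to 0.168, and without the filter on low counts (adjusted p = 0.0583).

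**Figure D3:**
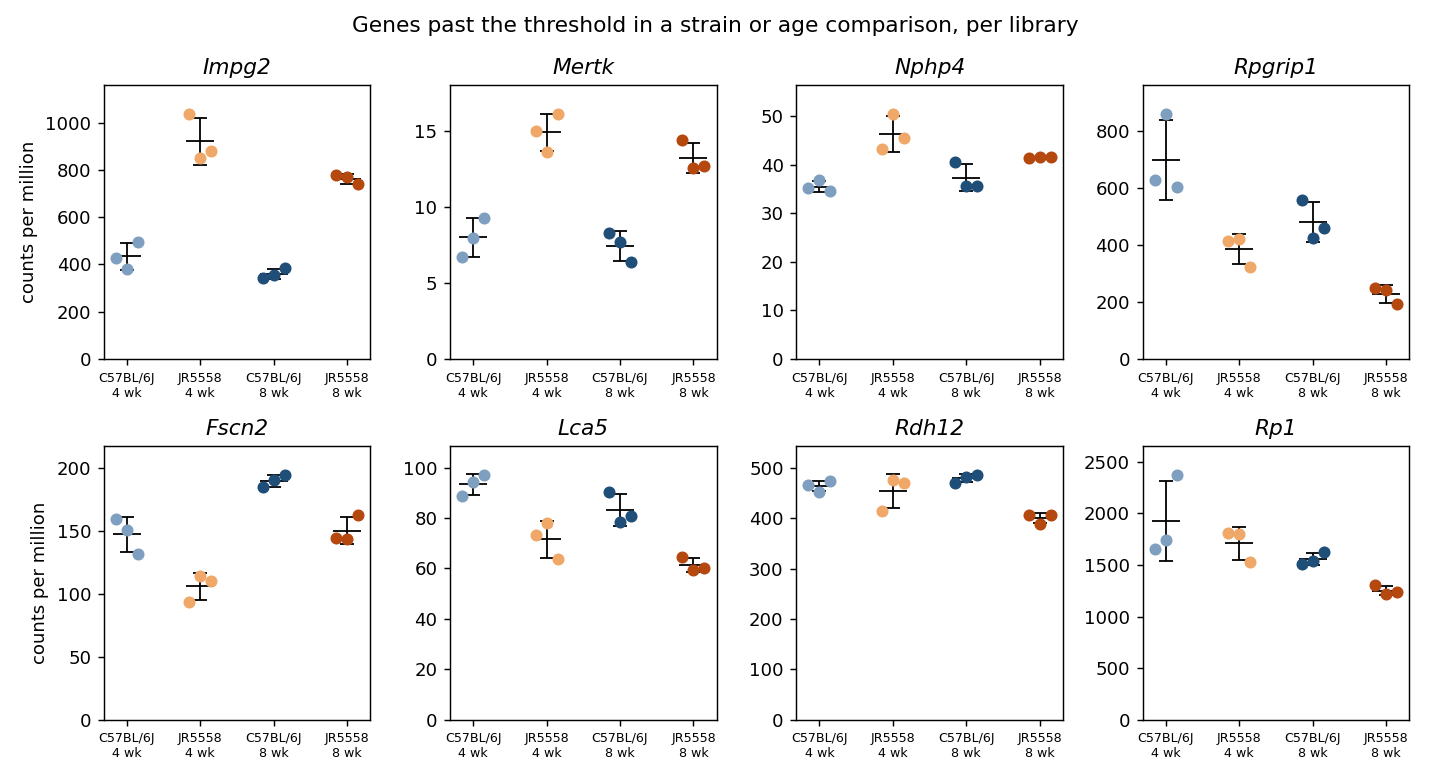
CPM of the 8 genes past the threshold in a strain or age comparison, by group; points are libraries, horizontal lines the group mean and vertical lines the SD (n = 3). The strains are apart at both ages in Impg2, Mertk and Rpgrip1, and Rp1 shows its lowest values in JR5558 at 8 weeks.

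By role, the cilium group held most calls, with Nphp4 higher and Rpgrip1 and Lca5 lower of 7 genes at 4 weeks, and Rpgrip1 and Lca5 lower at 8 weeks. Each other group held at most 1 called gene at an age. Among the 7 genes of the discs and the axoneme, Fscn2 was the one called at either age. Prph2 had 4521 to 5998 CPM in C57BL/6J and 4699 to 5537 in JR5558 at 4 weeks, with log2 fold changes of -0.03 ± 0.08 there and -0.07 ± 0.08 at 8 weeks. Rom1 had -0.09 ± 0.10 and -0.14 ± 0.10. Of the other 4 cilium genes, Rpgr, the GTPase regulator that Rpgrip1 anchors, had -0.23 ± 0.15 and -0.20 ± 0.15, and the transition zone scaffold Cep290 had -0.23 ± 0.10 and -0.28 ± 0.10 (adjusted p = 0.214 and 0.141). None of the 6 carriers and chaperones passed at either age in edgeR's test on the main scaling; Rd3 did at 8 weeks with rod marker scaling, as given above. In that group the tubby-like protein Tulp1 had 836 CPM and the small GTPase Arl3 149.6 in C57BL/6J replicate 3 at 4 weeks, the lowest of all 12 libraries for both, beside 1029.6 to 1492 and 160.3 to 272 elsewhere. Without that library Arl3 was lower in JR5558 at 4 weeks (-0.44, adjusted p = 0.00317) and Cdhr1 higher (0.24, adjusted p = 0.00687).

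None of the 8 genes of intraflagellar transport, kinesins and the BBSome, the coat complex that sorts ciliary membrane proteins, passed at either age in edgeR's test of all 12 libraries on the main scaling. The calls of Kif3a and Bbs2 under other settings at 8 weeks are given above. Their median log2 fold change was -0.02 at 4 weeks and -0.15 at 8 weeks. Bbs2 and the transport subunit Ift88 were the lowest of them at 8 weeks, with -0.26 ± 0.08 (adjusted p = 0.0865) and -0.30 ± 0.13 (adjusted p = 0.220). Among the 3 Usher proteins, which link and move membranes near the cilium and in hair cells, Cdh23 had fold changes as large as those of Mertk, 0.90 ± 0.42 and 1.13 ± 0.43, but on 10 to 63 counts per library and with adjusted p = 0.247 and 0.159. The retinoid transporter Abca4 had -0.01 ± 0.07 at 4 weeks and -0.22 ± 0.07 (adjusted p = 0.0656) at 8 weeks. Rpgr and Rp2 are on the X chromosome, and neither passed.

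Groups that do not overlap were more frequent than calls. The strains were fully apart in 10 of the 37 genes at 4 weeks, beside 19.6% of all genes tested, and in 23 of 37 at 8 weeks, beside 30.2%. The spread within groups was smaller at 8 weeks: the median coefficient of variation of CPM over the 37 genes was 11.8% in C57BL/6J and 9.16% in JR5558 at 4 weeks, and 5.00% and 4.83% at 8 weeks. On the main scaling, 25 of the 37 fold changes at 8 weeks were below 0 and 12 above, beside a median of -0.0007 over all genes tested. Over all alternatives, 17 of the 37 changed sign at 8 weeks, none of them called.

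The difference of the strain effect between the ages was also tested, and none of the 37 genes passed in edgeR's test, beside 0.0927% of all genes tested (0.0545% higher and 0.0382% lower). Sex cannot be told apart from this difference, as only the JR5558 libraries at 4 weeks had counts of Ddx3y. At an unadjusted p under 0.05 there were 3 of 37, and the share of all genes at that threshold was not counted. DESeq2 called 0 of the 37, beside 0.333% of all genes. Cdhr1 had the smallest p of the 37. Its JR5558 libraries had 1279, 1305 and 1324 CPM at 4 weeks, all above the C57BL/6J libraries at 1108, 1092 and 1201. At 8 weeks they had 1163, 1110.4 and 1121, all below the C57BL/6J libraries at 1179, 1195 and 1229. The strain effect was 0.20 ± 0.06 (adjusted p = 0.0522) and then -0.09 ± 0.06 (adjusted p = 0.505), and the difference was -0.29 ± 0.08 (adjusted p = 0.385). DESeq2 called Cdhr1 higher in JR5558 at 4 weeks (adjusted p = 0.0238).

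The age comparison asked which genes moved from 4 to 8 weeks within a strain. In JR5558 the sex of the mice also differed between the ages, so age and sex cannot be told apart there. The strain and age comparisons share libraries, so their values are given side by side and are not independent. In JR5558, Fscn2 was higher at 8 weeks and Rpgrip1 and Rp1 lower, 3 of 37 genes beside 1.51% of all genes tested (0.676% higher and 0.835% lower). The groups were apart in 14 of 37 genes, beside 24.3% of all. In C57BL/6J none of the 37 passed in edgeR's test, beside 0.431% of all genes (0.202% higher and 0.229% lower). DESeq2 called 3 of the 37, beside 2.19% of all genes. At an unadjusted p under 0.05 in edgeR's test there were 12, and the share of all genes at that threshold was not counted. The groups were apart in 11 of 37, beside 19% of all. Scaling on the rod markers gave 0 higher and 10 lower of the 37 in C57BL/6J, beside 8.36% of all genes (31 higher and 1501 lower). The median of all genes moved to -0.17 under that scaling. Without the filter on low counts 2 of the 37 were higher and 4 lower in C57BL/6J, beside 1.4% of all genes.

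Fscn2 was higher at 8 weeks by 0.50 ± 0.09 on the log2 scale in JR5558 (adjusted p = 0.00620), and the value in C57BL/6J was 0.37 ± 0.09 (adjusted p = 0.0819). Rpgrip1 was lower at 8 weeks by 0.76 ± 0.14 in JR5558 (adjusted p = 0.00673), with -0.53 ± 0.14 in C57BL/6J (adjusted p = 0.103). DESeq2 and the fit without the filter on low counts called Fscn2 and Rpgrip1 in C57BL/6J too, in the same directions. Rpgrip1 was also called there with rod marker scaling and without C57BL/6J replicate 3 at 4 weeks (adjusted p = 0.0419 in edgeR's test). Rp1, a microtubule-associated protein of the outer segment axoneme at chr1:3999557-4409241 on the minus strand (GRCm38; ENSMUSG00000025900), had 1811, 1799 and 1526 CPM in JR5558 at 4 weeks and 1304, 1221 and 1235 at 8 weeks. In C57BL/6J it had 1658, 1743 and 2372 CPM at 4 weeks and 1509, 1539 and 1623 at 8 weeks. The ages did not overlap within either strain, and the log2 change was -0.45 ± 0.10 (adjusted p = 0.0333) in JR5558 and -0.31 ± 0.10 (adjusted p = 0.185) in C57BL/6J. Without JR5558 replicate 3 at 8 weeks, Fscn2 (adjusted p = 0.0622) and Rpgrip1 (adjusted p = 0.0669) no longer passed. In that fit 0 of the 37 genes were called, beside 0.334% of all genes. Without JR5558 replicate 3 at 4 weeks 5 were called. The Rp1 call was lost in 5 of 6 such fits, all except the one without JR5558 replicate 3 at 4 weeks, with adjusted p of up to 0.174, and with a replicate block (adjusted p = 0.0530).

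**Figure D4:**
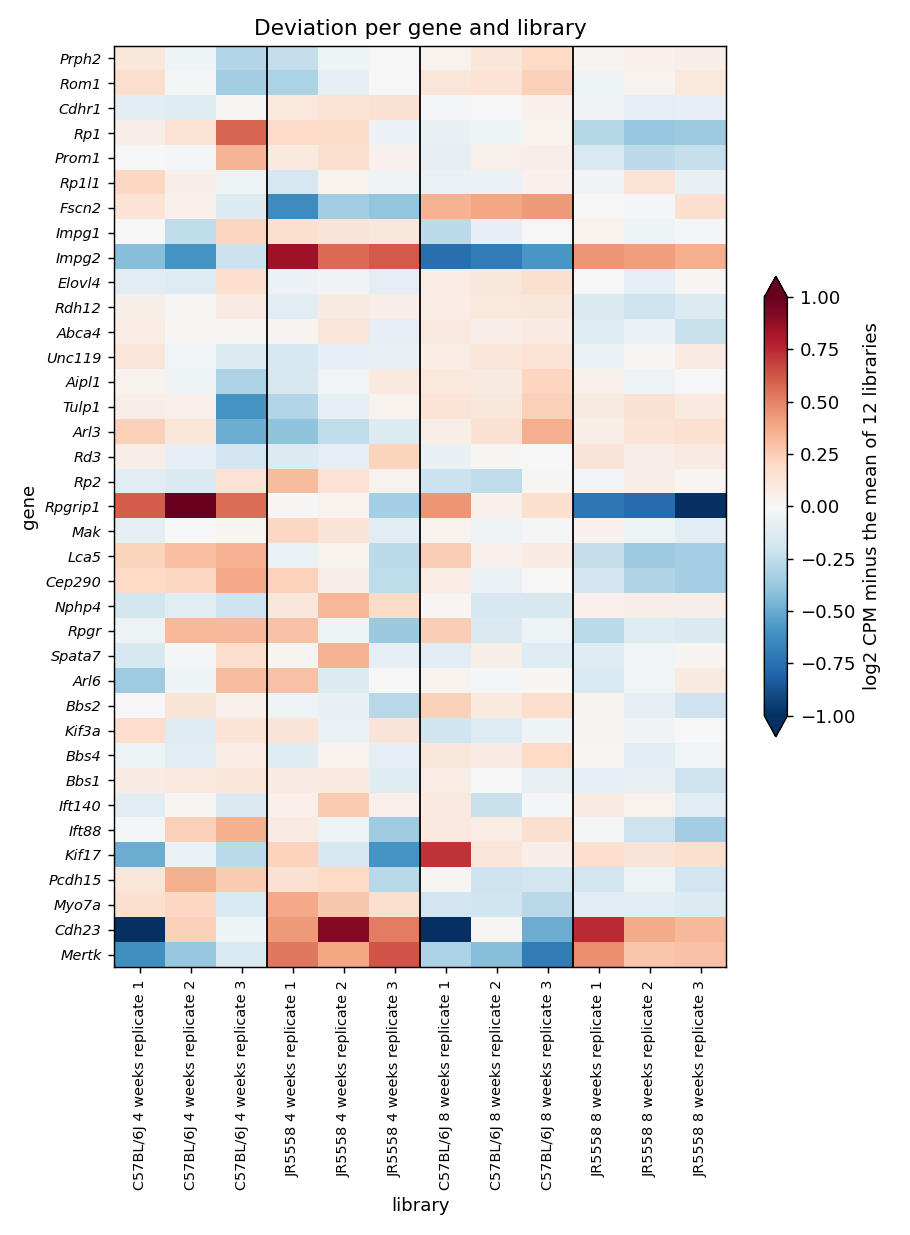
Log2 CPM of each of the 37 genes (rows) in each of the 12 libraries (columns) as the difference from the gene's mean over all libraries, on a scale cut at -1 and 1. Impg2 and Mertk are high in the 6 JR5558 libraries, Rpgrip1 is lowest in JR5558 at 8 weeks, and C57BL/6J replicate 3 at 4 weeks departs from its group in genes such as Tulp1 and Arl3.

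The wider pathways were described with 116 further genes in lists by role, of which 114 were in the table and 112 were tested. Of these, 4 were higher and 4 lower in JR5558 at 4 weeks, and 3 higher and 8 lower at 8 weeks, with median log2 fold changes of -0.04 and -0.07. These are 7.14% of the 112 beside 6.16% of all genes at 4 weeks, close to the background, and 9.82% beside 5.18% at 8 weeks. Of 9 other genes of outer segment phagocytosis, 1 was higher and 1 lower at 4 weeks and 2 were lower at 8 weeks. Tyro3, a receptor of the same family as Mertk, fell from 30.8 ± 4.35 CPM (SD, n = 3) in C57BL/6J to 12.9 ± 3.43 in JR5558 at 4 weeks, a log2 fold change of -1.25 ± 0.16 (adjusted p = 3.33e-05), and had -1.17 ± 0.16 (adjusted p = 6.41e-05) at 8 weeks. Tyro3 thus went the opposite way to Mertk at both ages. Pros1, which codes for a ligand of both receptors, was higher at 4 weeks (0.80 ± 0.18, adjusted p = 0.00910) and had 0.59 ± 0.18 at 8 weeks (adjusted p = 0.0591); its call at 4 weeks was lost without JR5558 replicate 1 (adjusted p = 0.0539). The scavenger receptor Cd36 was lower at 8 weeks (-1.14 ± 0.30, adjusted p = 0.0326), a call lost in each of the 6 fits without 1 of the 8-week libraries, with adjusted p of up to 0.156.

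Of 23 other genes of intraflagellar transport and kinesin-2 tested, 1 was higher at 4 weeks, and 1 was higher and 2 lower at 8 weeks. Ift57, a subunit of the anterograde complex B, was higher at both ages, with 0.54 ± 0.10 (adjusted p = 0.00121) and 0.46 ± 0.09 (adjusted p = 0.00564). Ift81, of the same complex, had -0.37 ± 0.09 (adjusted p = 0.0195) and Ift122, of the retrograde complex A, -0.32 ± 0.09 (adjusted p = 0.0496) at 8 weeks, and both calls were lost with rod marker scaling. Leaving out 1 of the 8-week libraries ended the Ift81 call in 5 of 6 fits, all except the one without JR5558 replicate 3 (adjusted p of up to 0.167), and the Ift122 call in all 6 (up to 0.267).

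Of 31 other transition zone and basal body genes, 1 was higher and 1 lower at each age. B9d1, a transition zone protein, was higher, with 0.63 ± 0.16 (adjusted p = 0.0206) and 0.78 ± 0.16 (adjusted p = 0.00532). Cep164, which docks the basal body to the membrane, was lower, with -0.45 ± 0.10 (adjusted p = 0.0114) and -0.40 ± 0.10 (adjusted p = 0.0259). At 4 weeks the B9d1 call was lost without replicate 1 or 3 of C57BL/6J and without replicate 3 of JR5558 (the largest adjusted p was 0.0853), and the Cep164 call without C57BL/6J replicate 2 (adjusted p = 0.0591). At 8 weeks the Cep164 call was lost in 5 of 6 such fits, all except the one without C57BL/6J replicate 3 (adjusted p of up to 0.161), and with rod marker scaling. With only the 4-week groups fitted, neither gene was called at 4 weeks. None of the 12 other BBSome genes and none of the 8 other carriers of lipid-modified proteins passed at either age in edgeR's test.

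Among the other Usher genes tested, Whrn was higher and Pdzd7 lower at 4 weeks, and Pdzd7 was lower at 8 weeks. Pdzd7, a scaffold partner of the Usher complex, had -1.40 ± 0.31 (adjusted p = 0.00789) and -1.04 ± 0.29 (adjusted p = 0.0463), and the call at 8 weeks was lost in 5 of 6 fits, all except the one without C57BL/6J replicate 3 (adjusted p of up to 0.340), and with rod marker scaling. Whrn, a scaffold of the periciliary membrane, had 0.39 ± 0.11 (adjusted p = 0.0344) at 4 weeks. The Whrn call was lost without C57BL/6J replicate 3 or any 1 of the JR5558 libraries at 4 weeks (adjusted p of up to 0.0852), with rod marker scaling and with only the 4-week groups fitted. Of 23 other genes of the outer segment membrane and photoreceptor degeneration tested, none passed at 4 weeks in edgeR's test, and 1 was higher and 2 lower at 8 weeks. Cerkl, a degeneration gene related to ceramide kinase, was higher (0.61 ± 0.12, adjusted p = 0.00282), from 14.2 ± 1.19 CPM (SD, n = 3) in C57BL/6J to 21.6 ± 1.40 in JR5558. Reep6, a rod endoplasmic reticulum protein, was lower (-0.34 ± 0.08, adjusted p = 0.00947), as was the potassium channel subunit Kcnv2 (-0.28 ± 0.07, adjusted p = 0.0307). Both calls were lost with rod marker scaling, and leaving out 1 of the 8-week libraries ended the Kcnv2 call in all 6 fits (adjusted p of up to 0.164) and the Reep6 call without JR5558 replicate 2 or 3 (up to 0.0666).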

How the data were processed

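Paired-end poly(A) RNA-seq of whole retina gave 1 library per mouse, 12 in all. The submitters' processing notes name HISAT2 2.0.5, featureCounts 1.5.0-p3, fastp and the build mm10, without order or settings. The deposited table, per the file headers, holds read counts and FPKM per gene. The strand setting was not given in the sources used here. The deposited gene positions matched those of GENCODE GRCm38 in start and end for 0 of the 37 genes and 2.83% of 52073 shared identifiers, so positions were taken from GENCODE by identifier. Promoter windows came from RefSeq tables of GRCm38.p6.

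Counts were analysed in R 4.3.3 with edgeR 4.0.16: filterByExpr by group (minimum count 10, total 15), TMM scaling, 1 mean per group over all 12 libraries, and glmQLFit and glmQLFTest (2-sided) with Benjamini-Hochberg adjustment. The SE is the log2 fold change over the root of the F statistic. Alternatives used DESeq2 1.42.0, other scalings and filters, only the groups compared, a replicate block and leaving out each library. The scripts were tested on simulated data. Members with an adjusted p under 0.05 are named with values per library, and up to 3 genes past the threshold are named from each further list. Cdhr1, Cdh23 and other members named short of the threshold were picked as examples after their values were seen. The members and lists were chosen with earlier results of these data known. No library was left out of the main values. The values of 1 further listed gene are not reported here.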

Additional observations from a re-analysis of the deposited data

How the results depend on the processing

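Impg2, Mertk and Rpgrip1 passed at both ages under every alternative and every fit with 1 library left out. The number of the 37 genes called by strain at 8 weeks was 6 and became 11 (2 higher, 9 lower) when only the 8-week groups were fitted. In the age comparison of C57BL/6J it was 0 and became 10 with rod marker scaling, 6 without the filter on low counts and 3 with DESeq2, and in JR5558 it was 3 and became 6 with no filter, with DESeq2 and with only the groups compared. Leaving out 1 library gave 5 to 8 called by strain at 4 weeks, 4 to 5 at 8 weeks, 0 to 1 by age in C57BL/6J, 0 to 5 by age in JR5558, and 0 for the difference between ages. Prom1 with age in C57BL/6J had -0.11, and with 1 library left out it ranged from -0.18 (without C57BL/6J replicate 2 at 4 weeks) to 0.017 (without replicate 3 at 4 weeks), where it changed sign; none of these passed, and the cause was not tested. Over all alternatives, 15 and 17 of the 37 genes changed sign in the strain comparisons at 4 and 8 weeks, 17 and 7 in the age comparisons of C57BL/6J and JR5558, and 24 in the difference between ages, none of them called where the sign changed. Over all genes, 1130 called at 4 weeks became 558 with only the groups compared and 814 to 1162 with 1 library left out. The 949 at 8 weeks became 2183 with only the groups compared, 2229 with rod marker scaling and 538 to 649 with 1 library left out. By age, 79 in C57BL/6J became 1532 (rod marker scaling), 445 (no filter), 401 (DESeq2), 22 (only the groups compared) and 16 to 125 (1 library left out), and 277 in JR5558 became 162, 854, 713, 544 and 63 to 689 in the same order. The 17 for the difference between ages became 11, 96 and 61 under the first 3 of these, and 6 to 38 with 1 library left out.

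No pairing of mice by replicate number was seen: the deviations of 18 same-numbered pairs correlated at -0.11 to 0.09. These correlations cannot show that no shared handling existed. With the replicate block, 6 of the 37 genes were called by strain at 4 weeks and 5 at 8 weeks. By age 0 were called in C57BL/6J and 2 in JR5558, and 0 for the difference. The shares of all genes called were 5.51%, 4.61%, 0.322%, 1.19% and 0.0655%, in the same order. Depth limits Cdh23 most, with 10 to 63 counts per library.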
